A study of Mus musculus with 6 samples.

Results

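Matricellular and adhesive matrix proteins were represented by 9 genes: Fn1 (fibronectin), Tnc and Tnxb (tenascin C and tenascin X), Postn (periostin), Sparc, Spp1 (osteopontin), Thbs1 and Thbs2 (thrombospondins) and Vcan (versican). A member was taken as the row of the deposited table whose single gene symbol was that gene's, and 8 of the 9 had such a row, 1 row each, among 19938 genes tested. Spp1 was not analysed here because no row was named for it.

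The colon had been profiled in 3 VilCre;Ihhflox/flox mice, labelled Ihh mutant, and in 3 control littermates, labelled wild type, with 1 Affymetrix Mouse Gene 1.0 ST array per mouse and 1 mutant and 1 control per litter. In the mutants a Cre recombinase driven by the villin promoter, which is active in gut epithelium, deletes the floxed gene of the secreted signal Indian hedgehog, so the deletion lies in the epithelium while the matrix genes are mostly those of the underlying mesenchyme. The design text gives day 12 after birth and the growth protocol a range of day 9 to day 12. Whether the controls carried floxed alleles or Cre is not given in the labels. The comparison asked how these genes differ in colon whose epithelium, by its genotype label, has the ligand gene deleted.

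Matricellular proteins are secreted into the extracellular matrix, where they act less as scaffold than as signals that tune how cells attach, move and respond to growth factors. Fibronectin and versican lie closer to the scaffold: fibronectin forms fibrils that cells grip through integrins, and versican is a large hyaluronan-binding proteoglycan. In the gut wall these genes are expressed chiefly by fibroblasts, smooth muscle and pericryptal cells, and hedgehog ligands of the epithelium signal to those same layers.

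Of the 8 measured members 3 fell in the mutant colon, 0 rose and 5 did not pass. Fn1, Postn and Vcan were those that fell, to levels 1.596-fold, 1.49-fold and 1.48-fold below control. Calls are adjusted p under 0.05 in a limma fit across all 19938 genes with the litter as a block, and in that fit 2.11% of all genes fell and 1.66% rose. At an unadjusted p under 0.05 stood 7 of the 8 members, Thbs1 being the 1 with a higher level, and 3008 of all genes. The 3 calls were lost when all 35557 rows of the table were tested together (adjusted p = 0.221, 0.153 and 0.155 for Fn1, Postn and Vcan) and in an ordinary paired test without limma's shared variance (0.541, 0.460 and 0.460), settings in which 2 and 0 genes passed in all. The median change of the 8 members was -0.41 on the log2 scale, against 0.01 over all genes tested. By litter the median of the members was -0.46, -0.33 and -0.19 in litters 1, 2 and 3. Since whole colon was measured, fewer cells of a type and less RNA per cell cannot be told apart in any of these values.

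**Figure D1:**
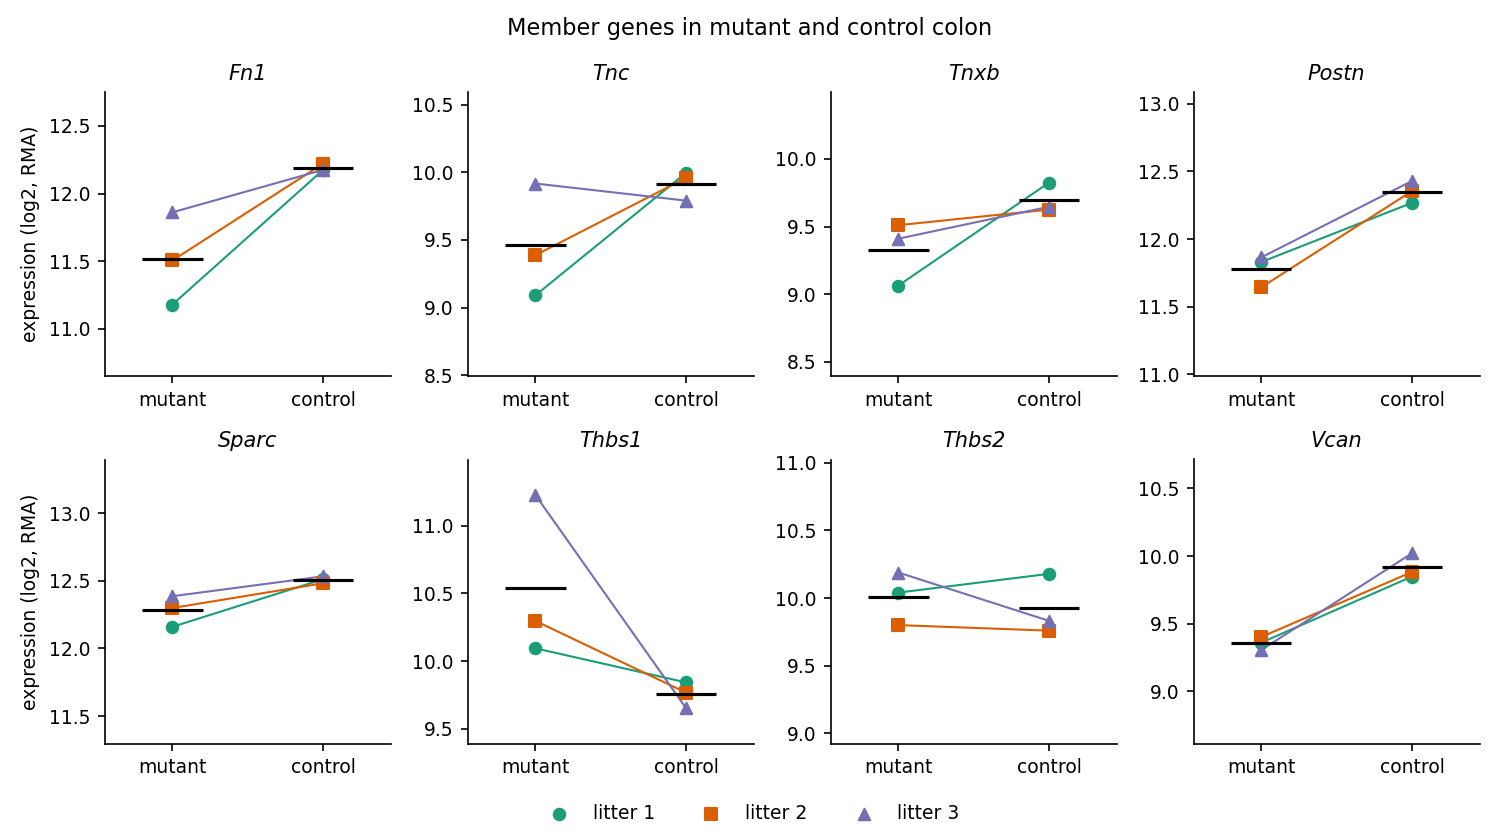
Expression of the 8 measured members on the log2 scale (RMA) in each mutant (left of each panel) and its control littermate (right), joined by a line per litter, with black bars at the group means (n = 3 each). Every panel spans the same range. For Fn1, Postn and Vcan the 3 mutants lie below all 3 controls, while the Thbs1 value of mutant 3, 11.23, lies above the other 5 arrays.

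The upstream sequence of 2 of the genes that fell is shown because both lie in the RefSeq promoter table (build GRCm38.p6), which lists 7 of the 9 members and neither Fn1 nor Thbs1. Each run is the 250 bases that end just before a listed transcription start, read 5′ to 3′ on the strand of the gene, and for Postn the window nearest the gene body of 2 listed ones is given. In Postn (chr3:54360857-54361106, plus strand) the capitals mark the letters TATAAA, which begin at position -26 from the start. In Vcan (chr13:89742513-89742762, minus strand) the capitals mark TGGGTGG, the reverse complement of CCACCCA, which begins at position -191 from the start. CCACCCA is the end of GACCACCCA, the letters that Gli transcription factors of the hedgehog pathway are known to prefer.
Postn: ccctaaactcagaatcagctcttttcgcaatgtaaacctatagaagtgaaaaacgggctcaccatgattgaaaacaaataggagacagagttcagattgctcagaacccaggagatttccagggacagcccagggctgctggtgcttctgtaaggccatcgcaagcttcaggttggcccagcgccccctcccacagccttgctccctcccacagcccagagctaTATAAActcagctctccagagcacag
Vcan: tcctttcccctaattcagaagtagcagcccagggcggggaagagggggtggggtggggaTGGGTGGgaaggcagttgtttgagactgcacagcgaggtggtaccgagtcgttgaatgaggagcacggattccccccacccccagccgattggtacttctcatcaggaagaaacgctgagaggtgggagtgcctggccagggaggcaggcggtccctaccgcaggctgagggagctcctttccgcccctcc

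The 7 listed members have 10 windows, of which 2 each belong to Postn, Tnc and Spp1, and those of Tnc overlap. Over both strands the full letters GACCACCCA were found in 0 of the 10 windows, against 0.225% of all 32851 windows in the table. CCACCCA was found in 2 windows, those of Vcan and Thbs2, against 8.11% of all windows. TATAAA was found in 5 windows, of Postn, Spp1, Thbs2 and Tnc, against 12.4%. The matches in the 2 overlapping Tnc windows are the same site, seen at -126 and at -205 from the 2 starts, so the windows are not independent. The CArG box, the site of serum response factor, was found in 0, against 1.47%. A match describes these letters in these windows and nothing more.

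Fibronectin, the adhesive glycoprotein of the set, stood at 11.18, 11.51 and 11.86 in mutants 1, 2 and 3, against 12.17, 12.22 and 12.17 in controls 1, 2 and 3. All mutants were below all controls, and the mutants were spread far more widely (SD 0.341) than the controls (SD 0.0268, n = 3 each). The change was -0.67 ± 0.13 (SE; 95% interval -0.97 to -0.38), with adjusted p = 0.0293 in limma. It was -0.99, -0.72 and -0.31 in litters 1, 2 and 3, and without litter 1 the change of -0.51 no longer passed (adjusted p = 0.0737). Alternative fibronectin forms were not told apart, since the row summarises probes along the transcript.

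Periostin, which binds collagen and fibronectin and is known from connective tissue under load, stood at 11.83, 11.64 and 11.86 in mutants 1, 2 and 3, against 12.27, 12.35 and 12.43 in the controls of the same litters. The groups did not overlap, and the lowest control was 0.403 above the highest mutant. The change was -0.57 ± 0.09 (SE; 95% interval -0.77 to -0.37; limma adjusted p = 0.0146). Postn kept its call when any 1 litter was left out, with adjusted p between 0.0179 and 0.0354. Such fits keep 1 residual degree of freedom and lean on limma's shared variance, whose weight differs among them. The prior degrees of freedom were 5.12, 18.3 and 11.6 without litters 1, 2 and 3.

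Versican stood at 9.36, 9.40 and 9.31 in mutants 1, 2 and 3, against 9.85, 9.88 and 10.02 in controls 1, 2 and 3. The mutants had an SD of 0.0481 and lay below every control. The change was -0.56 ± 0.09 (SE; 95% interval -0.76 to -0.36; limma adjusted p = 0.0155). Without litter 3, where the difference was -0.71, it was -0.48 and did not pass (adjusted p = 0.0651).

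Among all genes tested, 9.78% had 3 mutant values below all 3 control values, and 5 of the 8 members did. Beside Fn1, Postn and Vcan these were Tnxb and Sparc, which did not pass the test.

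Tenascin C, a matricellular protein of developing and healing tissue, stood at 9.09, 9.39 and 9.92 in mutants 1, 2 and 3, against 9.996, 9.96 and 9.79 in controls 1, 2 and 3. Mutants 1 and 2 were below every control, while mutant 3 was above its own control and inside the control range. The change of -0.45 ± 0.17 (95% interval -0.85 to -0.05) did not pass (limma adjusted p = 0.261). It was -0.74 without litter 3, where it passed (adjusted p = 0.00933), and -0.22 without litter 1 (adjusted p = 0.557). The fit without litter 3 had 11.6 prior degrees of freedom, against 5.85 in the main fit.

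Tenascin X, which is known for its part in collagen organisation in loose connective tissue, stood at 9.06, 9.51 and 9.41 in mutants 1, 2 and 3, against 9.83, 9.63 and 9.65 in the controls. Each mutant was below its littermate, by 0.761 in litter 1 and by 0.115 and 0.236 in litters 2 and 3. The change of -0.37 ± 0.13 (95% interval -0.66 to -0.08) did not pass (limma adjusted p = 0.201), and without litter 1 it was -0.18 (adjusted p = 0.360).

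Sparc, a collagen-binding protein that also loosens cell attachment, had the narrowest difference among the members lower in all 3 litters. It stood at 12.16, 12.30 and 12.39 in mutants 1, 2 and 3, against 12.51, 12.48 and 12.53 in the controls. The groups did not overlap, but the change of -0.23 ± 0.08 (95% interval -0.42 to -0.03) did not pass (limma adjusted p = 0.249). Over all genes, 17.1% were lower in the mutant of every litter, and 5 of the 8 members were.

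The thrombospondins were the members with a change above 0. Thrombospondin 1, an activator of latent TGF-beta and an inhibitor of vessel growth, stood at 10.09, 10.30 and 11.23 in mutants 1, 2 and 3, against 9.84, 9.77 and 9.65 in controls 1, 2 and 3. All mutants were above all controls, as for 10% of all genes, but mutant 3 stood far above mutants 1 and 2. The change of 0.79 ± 0.22 (95% interval 0.28 to 1.29), a 1.72-fold higher level, did not pass (limma adjusted p = 0.109). It was 0.39 without litter 3 (adjusted p = 0.193) and passed at 0.91 without litter 2 (adjusted p = 0.00870). The fit without litter 2 had 18.3 prior degrees of freedom, against 5.85 in the main fit.

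Thrombospondin 2, a close relative known for its effect on collagen fibrils and vessels, stood at 10.04, 9.80 and 10.19 in mutants 1, 2 and 3, against 10.18, 9.76 and 9.83 in the controls. The groups overlapped and the litters went both ways. The change of 0.09 ± 0.11 had a 95% interval of -0.16 to 0.34 (limma adjusted p = 0.814), and without litter 3 its sign turned, to -0.05.

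**Figure D2:**
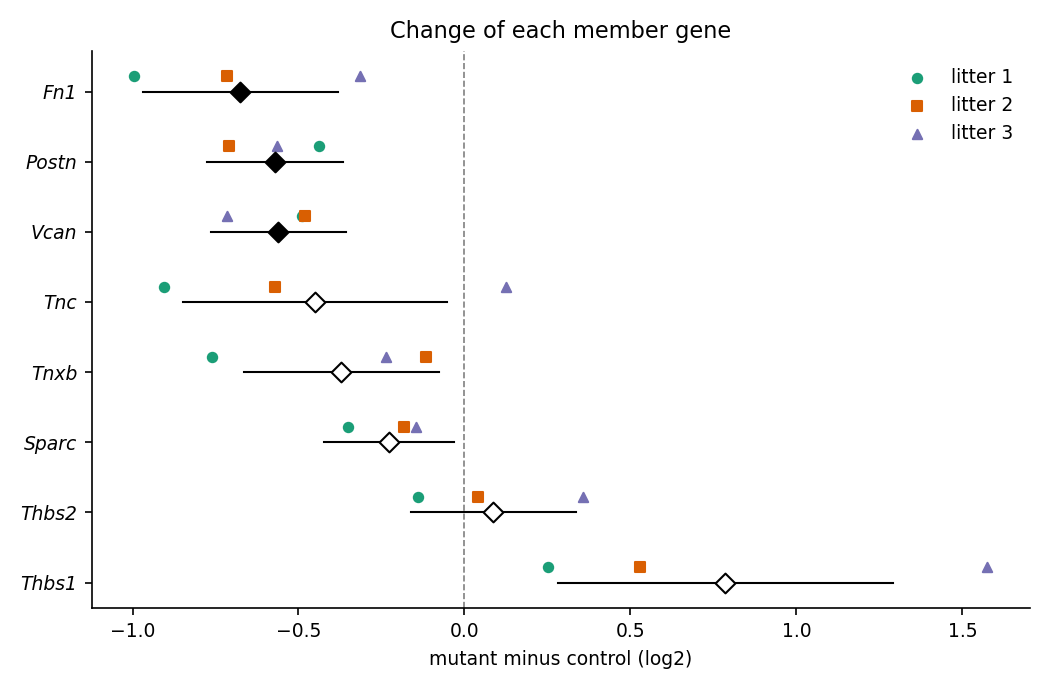
Mutant minus control on the log2 scale for the 8 measured members, ordered by change. Diamonds give the limma estimate, filled where adjusted p was under 0.05, lines the 95% interval, and small symbols the difference in each litter. Fn1, Postn and Vcan carry filled diamonds, at -0.67, -0.57 and -0.56, and the litters of Thbs1 spread from 0.252 to 1.57.

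The members differed in how the litters were spread. Fn1, Tnc, Tnxb and Sparc had their lowest mutant value and their largest difference in litter 1. In Vcan the largest fall was in litter 3, and in Postn it was in litter 2. As a measure of likeness, the root mean square difference of the log2 values over the 6 arrays was taken after subtracting each gene's own mean. By this measure Postn and Vcan were the closest pair of members, at 0.0965, and Fn1 and Tnc were 0.138 apart.

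Set against all genes by the same measure, Fn1 lay nearest to Actg2, the enteric smooth muscle actin (0.0310), and to Dmpk, a muscle kinase (0.0535). For comparison, Fn1 itself varied by 0.391 around its own mean. Vcan lay nearest to Ptprm, a receptor phosphatase (0.0287), and to Cdh6, a cadherin (0.0414), and Postn to Dipk2a (0.0316) and Itga1, a collagen-binding integrin chain (0.0412). Tnc lay nearest to Efhd1 (0.0444) and to Itga5, the alpha chain of the main fibronectin receptor (0.0822). Itga5, picked here for its likeness to Tnc, had differences of -0.89, -0.44 and 0.29 in litters 1, 2 and 3. Tnxb lay nearest to Ttc28 (0.0396) and Nfix (0.0502), Sparc to Dnaic1 (0.0247) and Drp2 (0.0292), and Thbs2 to Ndufb6 (0.0313) and Cxcl1 (0.0414). These likenesses over 6 arrays among 19938 genes are descriptions.

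Thbs1 had no neighbour as close, but the measure is not scaled to a gene's own spread. Thbs1 varied most of the members around its own mean, by 0.528, against 0.336 for Tnc and 0.132 for Sparc. The nearest genes were Egr1, an immediate early transcription factor (0.138), and Ereg, the growth factor epiregulin (0.162). Of the 6 measured genes of the Ccn family, which are also matricellular, 4 had their highest of 6 values in mutant 3. These were Ccn1, Ccn2, Ccn3 and Ccn6, while Ccn4 and Ccn5 had theirs in control 1. For Ccn6 the margin was slight, 6.01 in mutant 3 against 5.99 in control 1, at a level below the array medians. The share of all genes with their highest value in mutant 3 was not counted. Ccn1 stood at 9.11, 9.13 and 11.03 in mutants 1, 2 and 3, against 9.28, 8.94 and 8.77 in the controls, and Ccn2 at 8.997, 9.02 and 10.73, against 9.21, 9.17 and 8.97. Ccn3 was at 8.44, 8.73 and 9.47 in the mutants, against 7.94, 8.50 and 8.12 in the controls. Of the 6, 0 passed (limma adjusted p = 0.435, 0.623 and 0.102 for Ccn1, Ccn2 and Ccn3), with 1 at an unadjusted p under 0.05. Of all 19938 genes tested, 3008 were under that level.

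Immediate early genes, which cells switch on within minutes of a stimulus, also stood high in mutant 3. This list of 12 genes was drawn up after the values were seen. None of the 12 passed in limma, and 4 had an unadjusted p under 0.05, as had 3008 of all 19938 genes tested. Their mean level ran from 7.82 to 8.68 in the mutants, with mutant 3 the highest, against 7.73 to 7.90 in the controls. Their median difference was -0.08, 0.10 and 0.83 in litters 1, 2 and 3. Nr4a1 had the largest change of the list, with 8.12, 8.44 and 9.88 in mutants 1, 2 and 3, against 7.71, 7.75 and 7.57 in the controls (limma adjusted p = 0.102). The part of this in the Thbs1 and Tnc values of litter 3 was not tested.

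**Figure D3:**
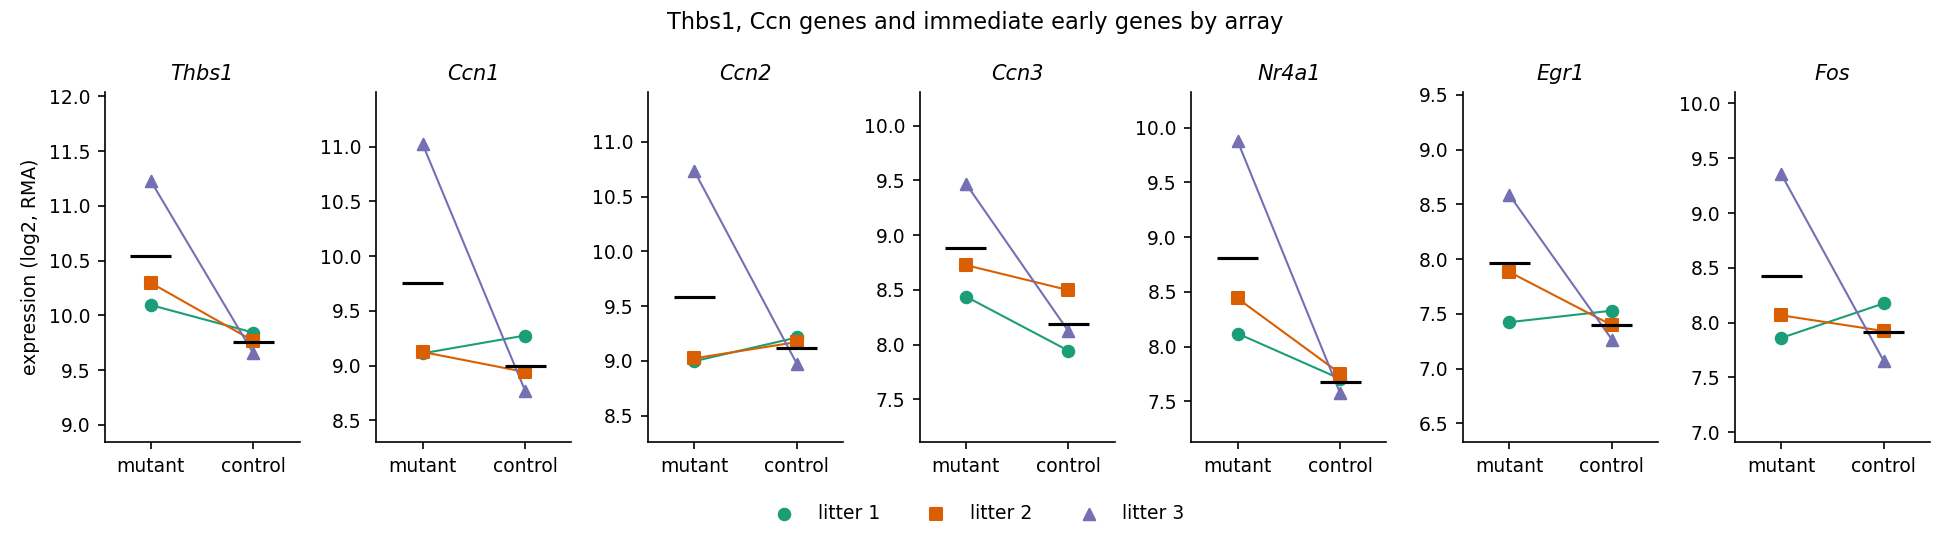
Expression of Thbs1, 3 Ccn genes and 3 immediate early genes on the log2 scale (RMA) in each mutant (left) and its control littermate (right), with a line per litter and black bars at the group means (n = 3 each). In all 7 panels the array of mutant 3 is the highest of the 6, with 11.23 for Thbs1 and 11.03 for Ccn1. The genes beside Thbs1 were picked after their values were seen, so the likeness of the panels is no test. Egr1 is also the nearest pattern to Thbs1, and Ccn4 and Ccn5, highest in control 1, are not shown.

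Other matricellular genes went both ways. Among 25 measured ones there were 2 falls and 1 rise, 22 did not pass, and their median change was 0.03, against 0.01 over all genes tested. Spock3, a proteoglycan of the Sparc family, fell by 0.82 ± 0.08 (limma adjusted p = 0.00259). Fstl1, a secreted glycoprotein with a domain shared with Sparc, fell by 0.52 ± 0.08 (adjusted p = 0.0171). Smoc2, another member of that family and known as a gene of crypt base cells, rose by 0.57 ± 0.10 (adjusted p = 0.0257, and 0.0918 without litter 3). Sparcl1, the closest relative of Sparc, was at -0.36 ± 0.09 and did not pass (adjusted p = 0.0818).

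Among receptors that bind the member proteins, there were 5 falls and 0 rises in 19 measured genes, and 14 did not pass. Over all genes 2.11% fell. The median change of the receptors was -0.35, against 0.01 over all genes. Itga9, the alpha chain of an integrin that binds tenascin C and osteopontin, was at 8.69, 8.75 and 9.01 in mutants 1, 2 and 3, against 9.70, 9.75 and 9.65 in the controls. It was lower in each mutant than in any control, and the change was -0.88 ± 0.10 (limma adjusted p = 0.00469).

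The fibronectin-binding chain Itga4 fell by 0.60 ± 0.12 and Itga8, whose integrin binds fibronectin and tenascin C and is typical of smooth muscle, by 0.64 ± 0.12 (adjusted p = 0.0389 and 0.0314). Without the litter block these 2 did not pass (adjusted p = 0.1002 and 0.0527). Itgb6, an epithelial integrin chain that binds fibronectin, fell by 0.42 ± 0.08, and Sdc2, the proteoglycan syndecan 2, by 0.44 ± 0.09 (adjusted p = 0.0330 and 0.0412). Leaving out litter 3 ended the calls of Itga4, Itga8, Itgb6 and Sdc2 (adjusted p = 0.0696, 0.0918, 0.179 and 0.112). Itga4 and Itgb6 were also lost without litter 2 (adjusted p = 0.0707 and 0.0860), and Sdc2 without litter 1 (adjusted p = 0.0877). Cd36 and Cd47, receptors of thrombospondin 1, were at -0.14 ± 0.13 and 0.04 ± 0.08, and Cd44, the hyaluronan receptor that also binds osteopontin, at 0.17 ± 0.09.

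Versican acts with hyaluronan, the link proteins that join them and the ADAMTS proteases that cut it. Of 17 measured genes of this network 3 fell, 0 rose and 14 did not pass, with a median of -0.04. Adamts9, a protease that cleaves versican, fell by 0.73 ± 0.08 (limma adjusted p = 0.00481). The 5 other rows of Adamts9 were lower in mutants too, with changes of -0.46 to -0.72. Adamts15, a related protease, fell by 0.55 ± 0.12 (adjusted p = 0.0457), and Has2, a hyaluronan synthase, by 0.39 ± 0.09 (adjusted p = 0.0481). Without litter 2 neither passed (adjusted p = 0.0977 for Adamts15 and 0.208 for Has2), nor without litter 3 (0.110 and 0.138), and Has2 also missed without litter 1 (0.0573) and without the litter block (0.0742). Adamts1, another versican protease, was at 0.59 ± 0.15 and did not pass (adjusted p = 0.0744).

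**Figure D4:**
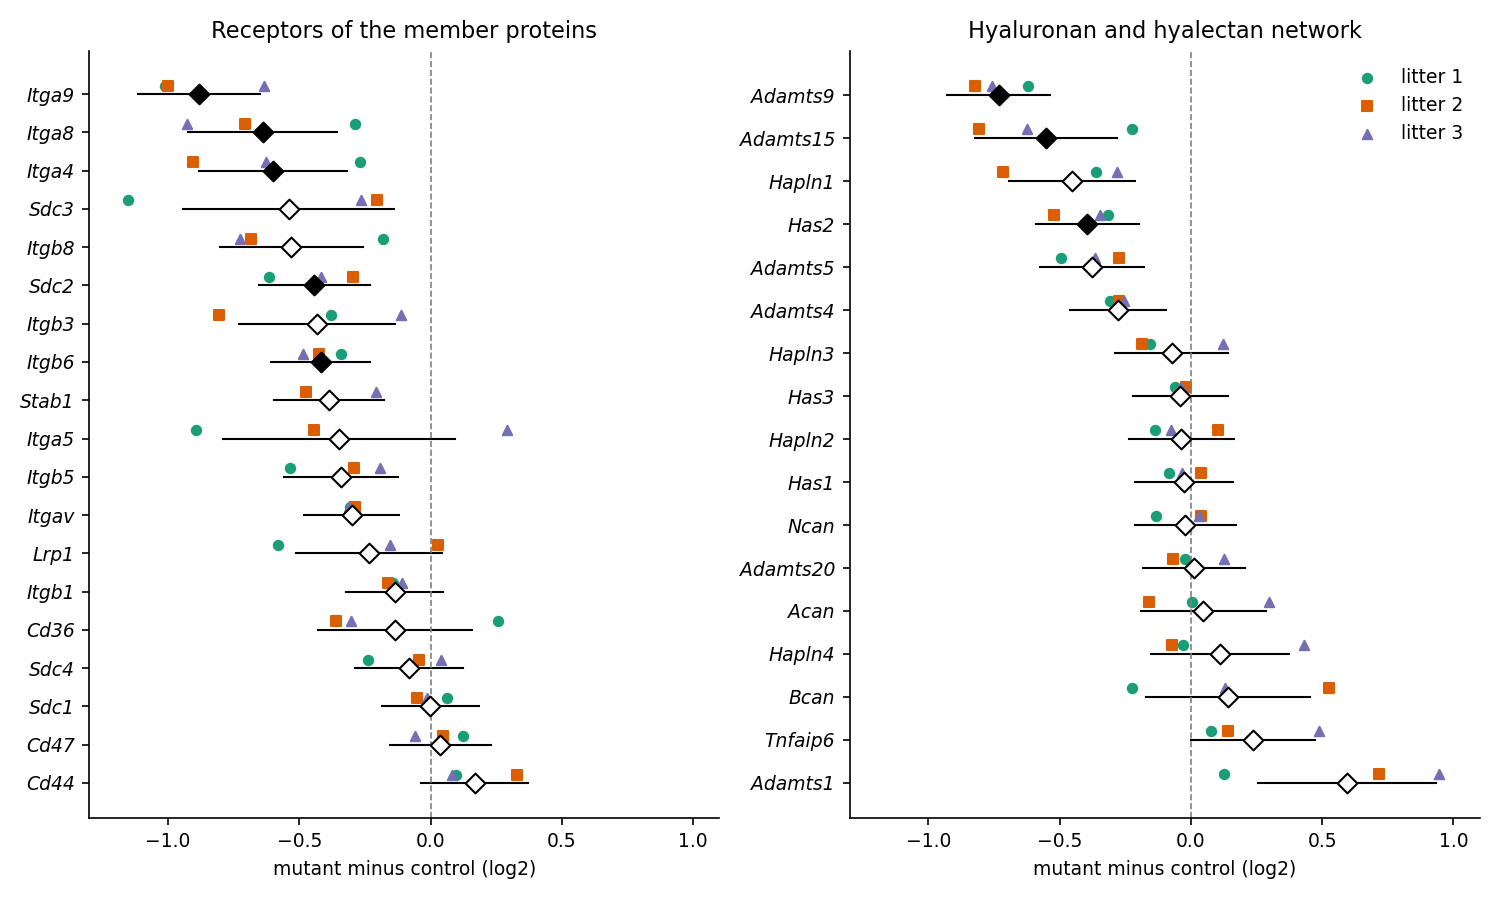
Mutant minus control on the log2 scale for 19 receptors of the member proteins (left) and 17 genes of the hyaluronan and hyalectan network (right), ordered by change. Diamonds give the limma estimate, filled where adjusted p was under 0.05, lines the 95% interval, and small symbols the difference in each litter. Of the receptors 17 lie below 0, as do 9478 of all 19938 genes tested. Itga9 and Adamts9 are lowest in their panels at -0.88 and -0.73.

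Of 11 collagen genes whose proteins bind fibronectin, periostin, tenascin X or Sparc or lie with them in fibrils, 2 fell, 0 rose and 9 did not pass. The median was -0.37, and it was -0.74 in litter 1 against -0.24 in each of litters 2 and 3. Col12a1, a fibril-associated collagen, fell by 1.11 ± 0.11 (limma adjusted p = 0.00272), and Col6a2, a chain of microfibrillar collagen, by 0.64 ± 0.13 (adjusted p = 0.0333). Col1a1, the main fibrillar chain, was at 12.24, 13.19 and 13.20 in mutants 1, 2 and 3, against 12.98, 13.16 and 13.13 in the controls, so only mutant 1 lay below the control range.

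The arrays, the labels and the other cell types of the sample bear on all these values. Array medians lay between 7.099 and 7.14, and correlations between arrays across rows between 0.985 and 0.994. Ihh was at 8.37, 8.22 and 8.22 in mutants 1, 2 and 3, against 8.50, 8.54 and 8.68 in the controls. It was lower in each litter but did not pass (limma adjusted p = 0.139), so the deletion is known here from the label. The hedgehog target genes Ptch1 and Gli1 fell by 1.44 ± 0.09 and by 0.78 ± 0.08 (adjusted p = 0.000493 and 0.00355). The female transcript Xist was at 6.41, 12.03 and 11.92 in mutants 1, 2 and 3, against 11.96, 5.96 and 5.83 in the controls, so every litter paired mice of unlike Xist level, with the mutant low in litter 1 and high in litters 2 and 3. With Xist as a covariate, a choice made after the values were seen, Fn1, Postn and Vcan passed at -0.77, -0.53 and -0.54. Tnxb passed as well in that fit, at -0.48 (limma adjusted p = 0.0199). The fit kept 1 residual and 5.16 prior degrees of freedom. Since the Xist difference set litter 1 against litters 2 and 3, an effect of sex and a departure of litter 1 cannot be told apart there.

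Smooth muscle markers were lower in the mutants, as by sign were 6 of the 8 members, while the other 2, Thbs1 and Thbs2, were higher. Of 9 smooth muscle markers measured 6 fell, and their mean level was 10.67 to 11.06 in mutants, against 11.36 to 11.41 in controls. Without litter 1, 1 of the 9 fell. Of 8 blood endothelium markers 6 fell, with mean levels of 8.09 to 8.23 in mutants, against 8.47 to 8.76 in controls, and 2 fell without litter 3. Of 9 fibroblast markers 1 fell, Pdgfra, and 0 without litter 2 or litter 3, with mean levels of 10.99 to 11.28 in mutants, against 11.32 to 11.40 in controls. Neutrophil markers went the other way, with 4 of 8 rising and mean levels of 6.06 to 6.64 in mutants, against 5.46 to 5.603 in controls. These levels lie below the array medians, and 1 rose when the dimmest 30% of genes were left out. A marker among the genes left out had no test there, so that count is not a count of failed tests. Without the litter block 3 rose, and 4, 6 and 4 rose without litters 1, 2 and 3. The part of these cell types in the members' values was not tested.

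Colon epithelium markers were present in all arrays, with mean levels of 11.26 to 11.42 in mutants, against 11.14 to 11.29 in controls. Of these 9 markers 0 passed, with 4 at an unadjusted p under 0.05. For this and the lists below, 3008 of all 19938 genes tested had an unadjusted p under 0.05. Of 9 small intestinal markers 1 rose, Fabp2, and 0 without litter 1 but 3 without litter 2, with mean levels of 7.61 to 8.18 in mutants, against 7.20 to 7.76 in controls. Of 9 macrophage markers 0 fell and 1 rose, Cd14, which did not pass without the litter block. In the list 6 were lower in every litter, Adgre1 (-0.43) and Csf1r (-0.38) among them, 5 had an unadjusted p under 0.05, and the median was -0.21. Their mean levels were 8.04 to 8.22 in mutants, against 8.09 to 8.24 in controls. Of 6 platelet markers, 6 skeletal muscle markers and 5 mesothelium markers 0 passed (0, 2 and 2 at an unadjusted p under 0.05), and of 6 bone and cartilage markers 1 rose, Sox9, which crypt cells also express, and 0 without the litter block.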

How the data were processed

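The authors deposited log2 expression values, made with RMA per the submitters' processing notes, for 6 arrays. The RMA version and the genome build behind the probes were not stated in the labels. The table held 35557 rows and 0 further columns of per-sample values. Through the platform annotation 21789 rows had 1 gene symbol, 1621 several and 12147 none here. Rows with 1 symbol were tested, with the highest-mean row per gene, which left 19938 genes.

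Mutant minus control was fitted with limma 3.58.1 in R 4.3.3 (lmFit, eBayes, two-sided, Benjamini-Hochberg over all genes), with the litter as a fixed block, because the design text states that mutant and control of one number are littermates. After subtracting group means, the 2 arrays of a litter had correlations across genes of 0.0128, 0.00516 and 0.0613, so the pairing comes from the labels. Errors beside a change are standard errors, and intervals use the same fit, which has 2 residual and 5.85 prior degrees of freedom. The number of arrays limits precision, and each mouse is a separate animal. The steps were tested on simulated data with 200 changed genes. Of log2 changes of 0.5, 23.9% were recovered, and of changes of 1, 100%, with 12 false calls among 161. A member that did not pass is therefore not shown to be unchanged.

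The genes named were the members, Ihh, Ptch1 and Gli1, up to 5 called genes per related list and that with the largest change, and the 2 nearest patterns per member. Ccn genes, immediate early genes and genes named without a call were added after their values were seen. Members and lists were chosen with earlier results of these data known. Upstream sequences came from RefSeq. Alternatives are given in the closing section.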

Additional observations from a re-analysis of the deposited data

How the results depend on the processing

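Without the litter block 364 genes fell and 274 rose, against 421 and 330 with it, and the same 3 members fell (Fn1 at adjusted p = 0.0437, Postn at 0.0106 and Vcan at 0.00736). The block changed the call of 0 members. Testing all 35557 rows left 1 fall and 1 rise in all and 0 members that fell. The unnamed rows lowered the prior degrees of freedom to 3.01 in that fit, and with all 23410 named rows, an alternative added after the data were seen, 423 fell, 333 rose and 3 members fell. The ordinary paired test without the shared variance, with 2 degrees of freedom, left 0 falls, 0 rises and 0 members, with 1969 genes at an unadjusted p under 0.05. Array weights gave 734 falls and 512 rises, with 3 members falling and 1 rising, Thbs1 (adjusted p = 0.0305). The Xist covariate, also added later, gave 680 falls and 565 rises, with 4 members falling, in a fit with 1 residual degree of freedom. Leaving out a litter gave 299 to 484 falls and 247 to 403 rises over all genes, and 2 to 3 falls and 0 to 1 rises among the members. Each fit without a litter had 1 residual degree of freedom. Their prior degrees of freedom were 5.12, 18.3 and 11.6 without litters 1, 2 and 3, so a call gained or kept there rests largely on the shared variance. Thbs2, not called in any setting, was at -0.049 without litter 3 and at 0.20 without litter 1. Vcan did not pass without litter 3 and Fn1 without litter 1. The other settings (random litter effect, eBayes with trend and robust, no dim genes, quantile normalization, median centring, mean of all rows) left 3 members falling and 0 rising. Neither setting that ended all 3 calls could change an estimate, since they alter only the variance or the number of tests. Depth has no counterpart in these values, and 3 litters limit what could be called.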
